A study of Mus musculus with 4 samples.

Results

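The forkhead (Fox) transcription factor genes were examined for accessible chromatin in mouse bone marrow-derived macrophages with and without the histone methyltransferase gene Ezh2. The set held 38 named forkhead genes, all of which were found among 21887 protein-coding genes of the RefSeq annotation. Accessibility was measured by ATAC-seq, a method in which Tn5 transposase cuts and tags open DNA, and was available as 1 list of called peaks per library. Peaks of the 4 lists that shared at least 1 bp were merged into regions, and a gene was given the regions that lay inside its body or within 10 kb of it. A gene-end region lay within 1 kb of either annotated end of the gene. By these rules the forkhead genes had 202 of the 91858 regions of the series. Each of Foxd2 with Foxe3 and Foxc2 with Foxl1 shared 1 region.

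The 2 wild-type (WT) libraries came from littermate controls and the 2 knockout (KO) libraries from Ezh2fl/fl;LysM-Cre+/- mice. In these mice Cre is expressed from the Lyz2 locus, so floxed Ezh2 is deleted in cells of the myeloid lineage. Marrow cells of both genotypes were grown for 7 to 10 days with L929 cell medium, a source of macrophage growth factor. Before nuclei were taken, the cells of all 4 libraries spent 24 hours in Hepa1-6 conditioned medium, that is, medium from a mouse hepatoma line, so every comparison here is between genotypes under that exposure. The labels do not give the age of the mice, the alleles of the littermate controls, or whether replicates came from separate mice, so any p-value or SD here measures the spread between these libraries, which may be technical.

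Forkhead factors share a winged-helix DNA-binding domain and are sorted into lettered classes by its sequence. FoxA, FoxC, FoxD and FoxF members direct the formation of organs in the embryo, and some of them open closed chromatin. Some FoxO, FoxP, FoxK, FoxJ and FoxN members are made in many adult cells, while others, such as Foxp3, Foxj1, Foxn1 and Foxn4, are restricted to few. FoxO factors are held in the cytoplasm by insulin and growth factor signalling through AKT. Ezh2 is the catalytic subunit of Polycomb repressive complex 2 (PRC2), whose mark on histone H3, methylated lysine 27, keeps many developmental forkhead genes silent in adult cells.

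The lists held 69210 and 72887 peaks in WT and 67055 and 71111 in KO. The files hold no read counts, so the sequencing depth is unknown, and a region absent from a list was not called there, which does not show that it was closed. In such bulk libraries, fewer open cells and less access per cell cannot be told apart. Gene ends of all 11 macrophage markers were called in every library, against 54.7% of all protein-coding genes. Of the marker genes of other cells, the same held for 1 of 6 of T cells, 1 of 4 of B cells, 1 of 5 of neutrophils and their precursors, 1 of 5 of fibroblasts, 1 of 4 of endothelium and 1 of 5 of hepatocytes. The T cell list holds Foxp3, itself one of the forkhead genes and not called at an end. The gene end of Ezh2 was called in every library, with 1378 and 1408 covered bases in WT and 1350 and 1351 in KO. This peak does not check the deletion, since the floxed exons are not located in the sources used here.

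Most forkhead genes were called open at an end in both genotypes, and the others had partial calls or none. A gene-end region was called in each of the 4 libraries at 21 of the 38 genes (55.3%), close to the 54.7% of all protein-coding genes. These were Foxa3, Foxc1, Foxd2, Foxe3, Foxh1, Foxj1, Foxj2, Foxj3, Foxk1, Foxk2, Foxm1, Foxn2, Foxn3, Foxo1, Foxo3, Foxo4, Foxo6, Foxp1, Foxp4, Foxq1 and Foxs1. A further 5 genes (13.2%, against 6.41% of all genes) had one in some libraries, namely Foxd1, Foxd4, Foxe1, Foxf1 and Foxl2. The remaining 12 (31.6%, against 38.9% of all genes) had none at either end in any library. With the wider window, 27 genes (71.1%, against 74.2% of all genes) had a region that all 4 libraries called. A further 9 (23.7%, against 7.00% of all genes) had regions of which none was called throughout. Foxb1 and Foxp2 had no region at all, a state found for 18.8% of all genes. The numbers of regions called in each library are shown in the grid of genes by libraries.

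**Figure D1:**
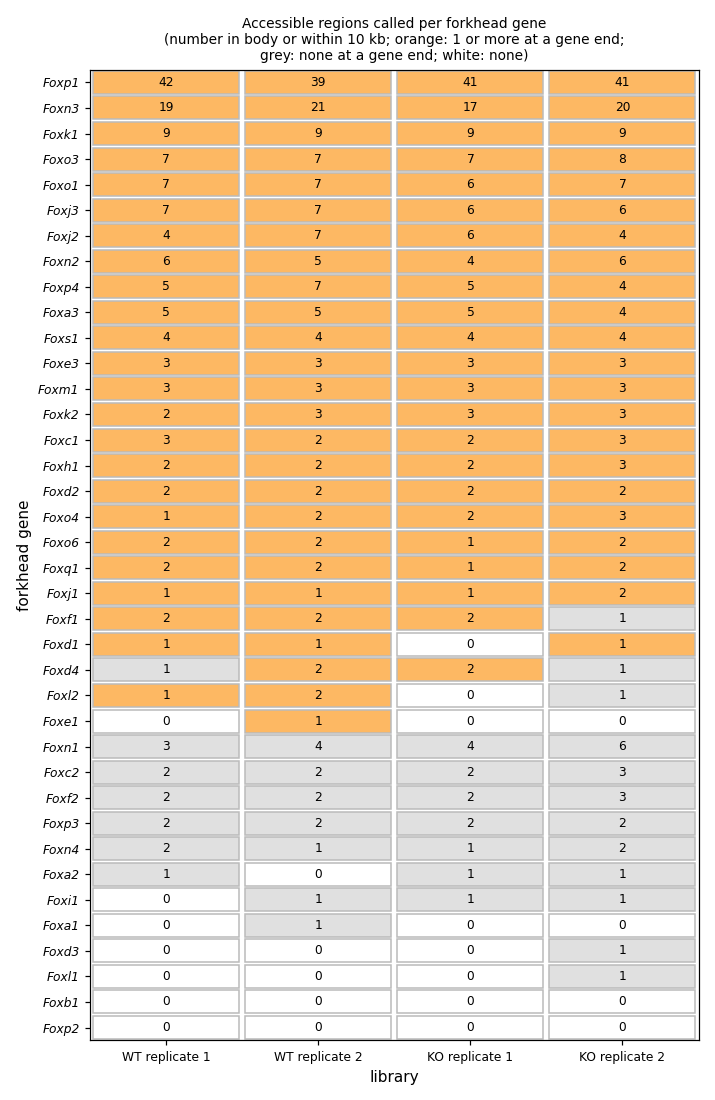
Number of accessible regions called in the gene body or within 10 kb for each of the 38 forkhead genes (rows) in each library (columns), where orange marks at least 1 gene-end region, grey regions but none at a gene end, and white no region. Of the genes, 21 are orange in all 4 columns, 5 are orange in some, and Foxb1 and Foxp2 are at 0 throughout.

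The lettered classes differed in their counts, which are small and stand beside a share of 54.7% of all protein-coding genes. Every library called an end of all 4 FoxO genes, all 3 FoxJ genes, both FoxK genes and Foxm1. Of the FoxP class this held for Foxp1 and Foxp4, and of the FoxN class for Foxn2 and Foxn3. In the classes A to I, L, Q and S it held for 7 of 20 genes. Of these genes all but Foxa3 had a body of up to 10 kb. In the other classes only Foxj1 and Foxo4 did. Class and length thus largely coincided, and their parts were not separated. Long and short members differed as follows. Of the 21 members with a body of up to 10 kb, 8 were called at an end in each library (38.1%, against 40.5% of all genes of that size), and of the 17 longer members 13 were (76.5%, against 62.7%).

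Promoter sequence was at hand for 28 start sites of 23 members, each as a RefSeq window (GRCm38.p6) of 250 bases before to 50 bases after the start. Of these windows 10 (35.7%, against 36.4% of 32851 windows of all genes) overlapped a peak in all 4 libraries, and 16 (57.1%, against 58.7%) overlapped none. The windows called throughout belonged to Foxa3, Foxc1, Foxd2, Foxj2, Foxj3, Foxk2, Foxo1, Foxo3, Foxp4 and a start site inside Foxp1. Below are 6 of these, chosen to show broadly expressed members of the classes J, K, O and P beside the developmental gene Foxd2. They are followed by the uncalled windows of Foxa1 and Foxp3. The start site of the Foxa1 window lies inside the annotated gene, not at its outer end. The windows lie, as written in the annotation, at chr4:119539411-119539710 on the plus strand (Foxj3), chr11:121259737-121260036 plus (Foxk2), chr3:52268087-52268386 plus (Foxo1), chr10:42276646-42276945 minus (Foxo3), chr6:99028249-99028548 minus (Foxp1), chr4:114908849-114909148 minus (Foxd2), chr12:57546062-57546361 minus (Foxa1) and chrX:7579426-7579725 plus (Foxp3). Each is written from 5′ to 3′ on the strand of its gene. Capitals mark every match, on either strand, to GTAAACA (the forkhead core site), GAGGAAGT (an ETS site of the PU.1 type), TGANTCA (AP-1), CCAAT (the CCAAT box) or GGGCGG (the GC box), and neighbouring GC boxes may overlap.
Foxj3: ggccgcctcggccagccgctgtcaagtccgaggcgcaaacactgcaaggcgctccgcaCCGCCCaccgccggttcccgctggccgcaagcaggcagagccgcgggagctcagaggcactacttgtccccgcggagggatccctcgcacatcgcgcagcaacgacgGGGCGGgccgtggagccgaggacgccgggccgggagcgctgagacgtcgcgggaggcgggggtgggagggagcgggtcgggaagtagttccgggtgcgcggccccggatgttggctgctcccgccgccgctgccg
Foxk2: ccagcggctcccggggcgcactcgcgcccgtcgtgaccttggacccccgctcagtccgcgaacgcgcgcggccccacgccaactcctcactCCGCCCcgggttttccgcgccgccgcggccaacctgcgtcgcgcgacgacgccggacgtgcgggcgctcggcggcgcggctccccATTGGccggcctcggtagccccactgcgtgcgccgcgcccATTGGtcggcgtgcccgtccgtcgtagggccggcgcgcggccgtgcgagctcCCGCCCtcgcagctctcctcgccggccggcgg
Foxo1: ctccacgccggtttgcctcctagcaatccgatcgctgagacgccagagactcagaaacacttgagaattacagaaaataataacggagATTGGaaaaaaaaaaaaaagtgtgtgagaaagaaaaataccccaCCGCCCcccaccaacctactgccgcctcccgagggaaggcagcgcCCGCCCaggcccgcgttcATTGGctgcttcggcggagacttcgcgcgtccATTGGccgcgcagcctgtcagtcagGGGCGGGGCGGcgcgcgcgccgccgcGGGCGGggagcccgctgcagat
Foxo3: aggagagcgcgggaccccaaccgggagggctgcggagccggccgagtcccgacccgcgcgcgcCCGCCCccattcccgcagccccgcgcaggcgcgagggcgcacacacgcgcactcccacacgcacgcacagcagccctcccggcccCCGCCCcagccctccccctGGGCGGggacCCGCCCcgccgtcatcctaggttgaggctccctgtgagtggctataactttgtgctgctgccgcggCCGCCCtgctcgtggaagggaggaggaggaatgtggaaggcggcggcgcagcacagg
Foxp1 internal start: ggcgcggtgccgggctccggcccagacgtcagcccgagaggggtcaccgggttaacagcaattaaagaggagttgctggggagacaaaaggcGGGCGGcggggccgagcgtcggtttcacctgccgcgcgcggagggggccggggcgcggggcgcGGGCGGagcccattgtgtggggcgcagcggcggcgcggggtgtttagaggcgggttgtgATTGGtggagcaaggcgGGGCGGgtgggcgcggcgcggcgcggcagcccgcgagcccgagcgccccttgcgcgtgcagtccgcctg
Foxd2: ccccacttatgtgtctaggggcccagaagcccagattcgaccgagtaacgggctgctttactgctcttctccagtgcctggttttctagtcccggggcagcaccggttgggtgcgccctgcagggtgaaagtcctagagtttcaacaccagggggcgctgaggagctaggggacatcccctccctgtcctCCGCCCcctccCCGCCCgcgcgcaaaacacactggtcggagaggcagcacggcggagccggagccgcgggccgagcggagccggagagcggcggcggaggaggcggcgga
Foxa1: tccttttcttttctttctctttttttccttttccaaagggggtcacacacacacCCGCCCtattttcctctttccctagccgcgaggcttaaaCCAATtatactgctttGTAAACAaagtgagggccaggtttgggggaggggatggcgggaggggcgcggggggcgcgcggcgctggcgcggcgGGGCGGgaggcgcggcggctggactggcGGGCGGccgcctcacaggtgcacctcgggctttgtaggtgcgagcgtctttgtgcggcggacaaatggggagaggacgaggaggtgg
Foxp3: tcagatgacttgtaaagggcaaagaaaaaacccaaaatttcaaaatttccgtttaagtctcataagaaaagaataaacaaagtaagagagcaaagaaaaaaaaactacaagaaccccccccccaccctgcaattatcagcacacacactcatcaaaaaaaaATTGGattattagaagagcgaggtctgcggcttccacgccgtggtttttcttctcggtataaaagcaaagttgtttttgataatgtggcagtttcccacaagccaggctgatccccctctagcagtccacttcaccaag

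The called windows were richer in CpG dinucleotides than the uncalled ones. Their median was 34.0 CpG per 300 bases, with a range from 22 (Foxa3) to 59 (Foxk2), while the uncalled windows had a median of 12.0 and a range from 5 to 27. Over all genes the medians were 22.0 and 4.0. The ranges of the member windows overlapped between 22 and 27, where Foxa3 and Foxd2 were called and Foxf2, Foxl2, Foxa1, Foxd3, Foxn4 and 1 window of Foxa2 were not. In the sequences shown, Foxk2 has 59 CpG and 79.3% G+C, and Foxp3, the gene of the regulatory T cell factor, has 6 CpG and 40.7% G+C. GC boxes were found in all 10 called windows, against 66.0% of the called windows of all genes, and in 75.0% of the 28 member windows, against 35.7% of all windows. The CCAAT box was found in 5 of the 10 and in 42.9% of the 28, against 37.4% of all windows. Both kinds of match can be followed in the Foxo1 window, which holds 5 GC boxes and 3 CCAAT boxes. GTAAACA occurred in 1 of the 28 windows, that of Foxa1 (3.57%, against 3.65% of all windows), GAGGAAGT in 2, of Foxa2 and Foxf2 (7.14%, against 3.20%), and TGANTCA in 2, of Foxe3 and Foxn3 (7.14%, against 7.81%). None of these windows was called. Over all genes the called windows held GTAAACA in 2.43%, GAGGAAGT in 3.74% and TGANTCA in 4.79%, so 0 of 10 called member windows lies near that background.

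**Figure D2:**
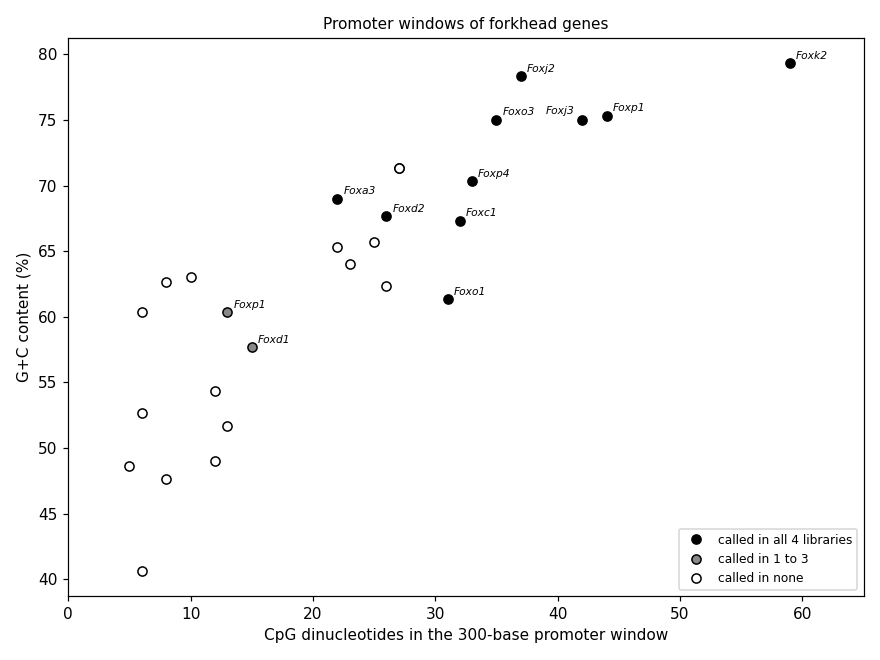
CpG dinucleotides (horizontal axis, count per 300-base window) and G+C content (vertical axis, percent) of 28 promoter windows of forkhead genes, with filled points for windows called in all 4 libraries, grey for some and open for none. Called windows lie at 22 CpG or more, and uncalled windows at 27 or fewer, with 2 points at 27 CpG and 71.3% coinciding.

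All 4 FoxO genes, which encode factors that restrain growth and promote stress resistance, had an open region at a gene end. At Foxo1 the region chr3:52267660-52269162 took in the whole promoter window, and peaks covered 980 and 1165 of its bases in WT and 973 and 1503 in KO. The genotypes overlapped. At Foxo3 the region chr10:42276331-42278323 covered 1957 and 1472 bases in WT and 1920 and 1932 in KO, which also overlapped. The regions of Foxo4 (chrX:101253713-101254526) and Foxo6 (chr4:120287668-120288149) were shorter but ranked higher by fold, the enrichment over local background that the authors' peak caller gave each peak. Within their own lists the Foxo4 peaks reached percentiles 76.3 and 82.7 for WT against 69.2 and 86.5 for KO, and the Foxo6 peaks 58.9 and 64.6 for WT against 64.4 and 61.7 for KO. The Foxo1 peaks stood at 43.9 and 49.6 for WT against 40.6 and 42.6 for KO, and those of Foxo3 at 38.6 and 51.6 for WT against 46.0 and 40.6 for KO. The wide Foxo1 and Foxo3 regions thus ranked below the narrow ones of Foxo4 and Foxo6 in every list. How the width of a peak bears on its fold was not tested. Here and below, a low rank of a wide region therefore does not show that it was weakly open. Foxo4 had covered lengths of 456 and 384 bases in WT and 661 and 510 in KO, and Foxo6 had 409 and 458 for WT against 423 and 457 for KO.

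The gene-end regions were ranked by the lowest of their 4 percentiles, and of the 21 that of Foxj3 came first. Its region chr4:119539197-119539742 at the start of the gene had fold values of 7.03 and 6.96 in the WT lists and 8.16 and 7.63 in the KO lists, at percentiles 90.8, 91.7, 95.3 and 94.2. It also lay at an end of Frg2f1, so it cannot be given to Foxj3 alone. Covered length there was 494 and 475 bases in WT and 472 and 529 in KO, so the genotypes overlapped. Foxk2, which with Foxk1 encodes factors that repress autophagy genes and promote glycolysis, had fold values of 7.50 and 6.25 in the WT lists and 7.13 and 7.66 in the KO lists at chr11:121259310-121260096. Foxk1 had a region of 1398 bp at its end, chr5:142401072-142402469, with 1031 and 715 covered bases in WT and 513 and 1228 in KO. The spread within KO was wider than the distance between the genotypes. All 9 regions of Foxk1 were called in all 4 libraries. At Foxj2, ranked 12 of the 21, the start region covered 803 and 1098 bases in WT and 822 and 1008 in KO. Foxj1, the gene of the factor that drives formation of motile cilia, had 620 and 554 covered bases in WT and 575 and 617 in KO, at an end within 1 kb of an end of its neighbour Rnf157.

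Foxm1, which drives the genes of G2 and mitosis in dividing cells, had 3 regions, each called in every library. Its gene-end region chr6:128362145-128363478 covered 1173 and 1205 bases in WT and 1306 and 1032 in KO, and it also lay at an end of Rhno1. At the end of Foxn2 the region chr17:88440279-88442162 covered 1771 and 1859 bases in WT and 1842 and 1884 in KO, so its length varied little. By the lowest of its 4 percentiles (93.2), the first of all shared member regions lay inside Foxn2, 22067 bp from the nearer end (chr17:88462771-88462990). Its fold values were 8.67 and 9.36 in the WT lists and 7.74 and 9.21 in the KO lists, and its covered length of 210 and 219 bases in WT and 217 and 212 in KO varied little too. By fold alone, regions of other members stood above it in every list but that of WT replicate 2. Foxp4 covered 778 and 1125 bases in WT and 978 and 1139 in KO at its start.

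Among the 10 strongest gene-end regions were also those of genes with roles in the embryo. Foxd2 had fold values of 7.99 and 7.66 in the WT lists and 7.47 and 6.94 in the KO lists at chr4:114908555-114909609, a region around the start shown above. Its covered length was 679 and 697 bases in WT and 737 and 975 in KO. This was higher in both KO libraries, but the difference did not pass the test described below (limma, adjusted p = 0.965). Foxh1, a partner of SMAD proteins in Nodal signalling, had fold values of 8.82 and 7.22 in the WT lists and 7.36 and 7.46 in the KO lists, and Foxa3, a factor of liver and gut, had 6.55 and 6.89 in the WT lists and 8.04 and 8.26 in the KO lists. Both regions lay at an end of another gene too, Ppp1r16a beside Foxh1 and Sympk beside Foxa3, so they cannot be given to the forkhead gene alone. The region near Foxs1 reached percentiles 71.6 and 90.6 for WT against 59.4 and 82.9 for KO, and covered 331 and 179 bases in WT and 342 and 205 in KO, so that libraries with the same replicate number lay closer than those of the same genotype. The other 11 gene-end regions had fold values from 2.82 (Foxq1) to 5.30 (Foxm1). Over all 21 the median fold was 4.90 and 4.69 in the WT lists and 4.97 and 4.94 in the KO lists, below the 5.58, 5.46, 5.74 and 5.62 of all gene-end regions that the 4 libraries shared. Of the 21 regions, 11 lay at the start of the gene and 1, of Foxe3, nearer the far end, and for 9 the promoter table gave no strand. In all, 5 of the 21 also lay at an end of another protein-coding gene.

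**Figure D3:**
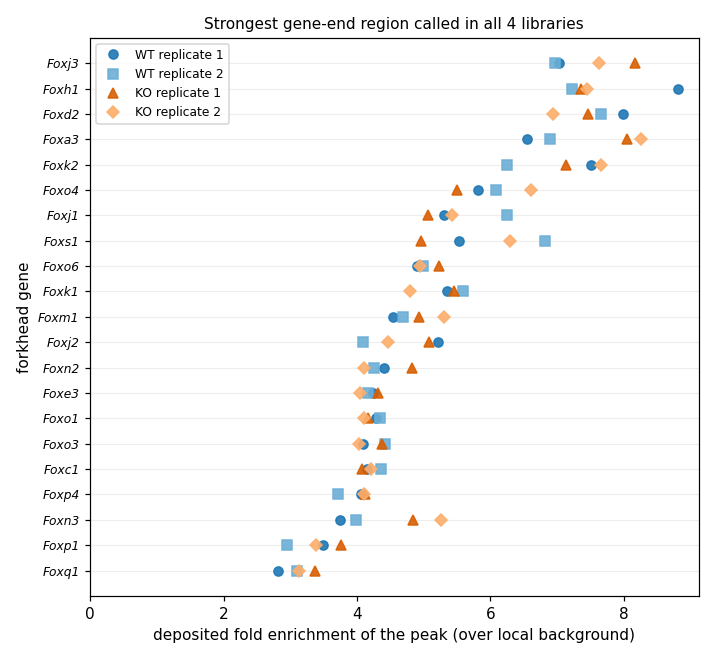
Deposited fold enrichment (horizontal axis, over local background) of the strongest gene-end region called in all 4 libraries for 21 forkhead genes (vertical axis), with 1 symbol per library. Foxj3, Foxh1, Foxd2, Foxa3 and Foxk2 stand highest and Foxq1 lowest. Each value belongs to its own list, so genes can be ranked within a library.

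Of the genes with no call at an end, 6 had regions of which none was shared by all libraries. Foxa1 and Foxa2, pioneer factors of liver and other endoderm, had 1 region each. The one inside Foxa1 (chr12:57546538-57546944) was called in WT replicate 2 alone with 407 covered bases, close to but outside the promoter window shown above. It also lay at an end of Ttc6, so it cannot be given to Foxa1 alone. The one near Foxa2 covered 389 bases in WT replicate 1, 0 in WT replicate 2, and 169 and 273 in KO. Foxd3 of the neural crest and Foxl1 of gut mesenchyme had 1 region each, called in KO replicate 2 alone with 142 and 176 covered bases. Foxi1, a factor of ionocytes, had 1 region 4918 bp before its start, called in WT replicate 2 and both KO libraries. Foxn4, a factor of retinal progenitors, had 4 regions and none of them was shared by all libraries. Each of these calls was present in at most 3 lists, and no genotype had both of its libraries against none of the other.

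Foxc2, Foxf2, Foxn1 and Foxp3 (10.5% of members, against 15.2% of all genes) had no gene-end region but at least 1 region within the window that every library called. Foxc2, which acts in vessels and lymphatics, had such regions 7532 and 2420 bp away, both also within 10 kb of Mthfsd. Foxp3 had 2, of which 1 lay 8817 bp beyond its far end and the other 4791 bp before its start. At the latter, which was also at an end of Ppp1r3f, the peaks covered 773 and 748 bases in WT and 609 and 806 in KO. Foxn1, needed in thymic epithelium, had 3 such regions, of which 1, inside the gene, had 626 and 534 covered bases in WT and 529 and 534 in KO. Foxf2 had 2 such regions, and the one inside the gene had 134 and 166 bases in WT and 133 and 296 in KO. In all, 9 of the 27 genes with a region called throughout had such regions within 10 kb of another protein-coding gene alone, namely Foxa3, Foxc2, Foxf1, Foxh1, Foxj1, Foxm1, Foxo4, Foxp3 and Foxs1.

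By number of regions the FoxP class held both extremes of the family, though Foxb1 had none either. Foxp1, whose product acts in monocyte and lymphocyte development, spans 597405 bp on chromosome 6 and had 48 regions, 32 of them shared by the 4 libraries. The libraries called 42 and 39 of them in WT and 41 and 41 in KO. Per 100 kb of body and flanking windows Foxp1 had 7.77 regions. Over members with any region this density ranged from 3.65 (Foxa1) to 18.8 (Foxs1), so the high count of Foxp1 was not a high density. Of 557 protein-coding genes with a body of at least 300 kb, 6 had at least as many regions, Foxp1 included, and the median was 9. Foxp2, best known for its role in the brain and in vocal learning, spans 540629 bp and had 0 regions in each library, as did 10.4% of these long genes. The nearest region lay 21327 bp beyond its end and was called in all 4 libraries. Foxn3, a checkpoint repressor gene of 373587 bp, had 27 regions, 15 of them shared by all libraries, with 19 and 21 called in WT and 17 and 20 in KO.

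The shared region of Foxp1 with the highest lowest percentile lay 34020 bp from its far end (chr6:98959362-98960020), with fold values of 6.91 and 6.92 in the WT lists and 9.42 and 8.10 in the KO lists. Its covered length was 409 and 659 bases in WT and 339 and 444 in KO, with overlap. By contrast, the region at the annotated start of Foxp1 ranked low, with percentiles of 21.6 and 9.97 for WT against 29.2 and 22.3 for KO. That region was 2480 bp wide, and the peaks of WT replicate 2 covered 2461 bases of it, against 1024 in WT replicate 1 and 1125 and 1536 in KO. The CpG-rich internal start of Foxp1 shown above was covered over all 300 bases in every library. At Foxn3 the region at the annotated start likewise covered 1573 bases in WT replicate 2 but 613 in WT replicate 1 and 650 and 642 in KO. The Foxn3 promoter window of the table lies inside the gene and was uncalled.

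**Figure D4:**
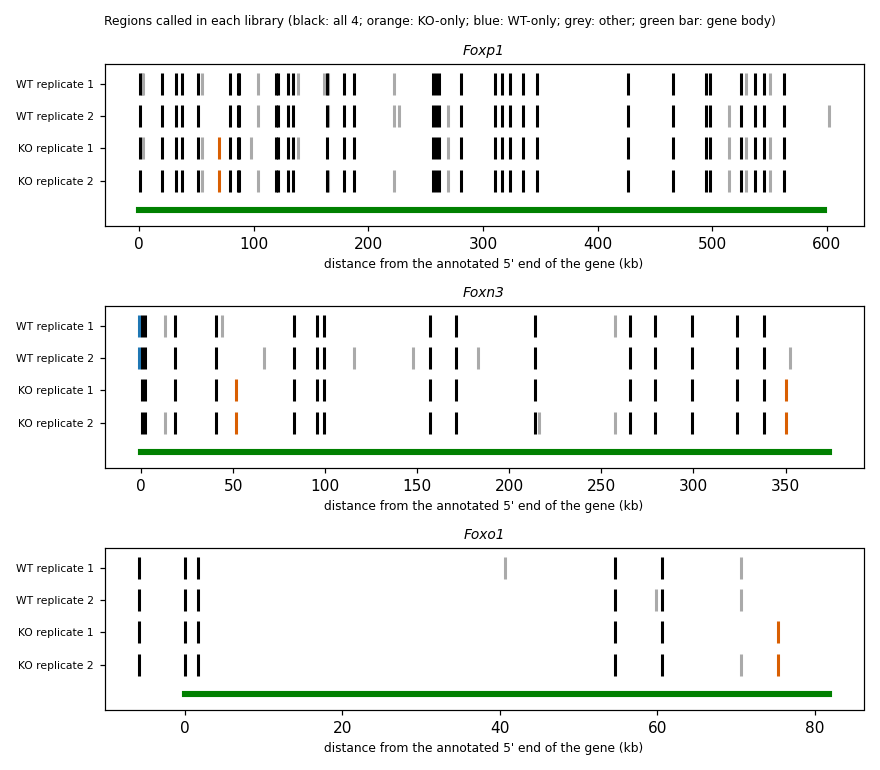
Position of regions along Foxp1, Foxn3 and Foxo1 (horizontal axis, kb from the annotated 5′ end) in each library (rows), with each region drawn as a tick of fixed width at its centre and the gene body as a green bar. Black ticks (called in all 4 libraries) make up 32 of 48 regions at Foxp1, 15 of 27 at Foxn3 and 5 of 9 at Foxo1, while orange (KO-only) and blue (WT-only) ticks are few.

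Of the 202 forkhead regions 119 (58.9%, against 57.8% of all regions) were called in all 4 libraries, 23 in 3 (11.4%, against 9.52%), 14 in 2 (6.93%, against 9.70%) and 46 in 1 (22.8%, against 23.0%). The closer background is the 66584 regions inside or within 10 kb of any protein-coding gene. There the shares were 60.5% in all 4, 9.15% in 3, 9.16% in 2 and 21.2% in 1. Regions called in both libraries of 1 genotype alone were few. KO-only regions, called in both KO libraries and neither WT library, numbered 4 (1.98%, against 1.47% of all regions), and WT-only regions 2 (0.990%, against 2.03%). Of the regions near protein-coding genes, 1.40% were KO-only and 1.87% WT-only. Genes with at least 1 KO-only region were 3 of the 38 (7.89%, against 4.82% of all genes), and with at least 1 WT-only region 2 (5.26%, against 6.29%). Pairs of libraries that crossed genotype gave 1 to 3 regions each. The KO-only regions lay inside Foxn3 (chr12:99213233-99213632 and chr12:99511799-99512016), Foxo1 (chr3:52343396-52343863) and Foxp1 (chr6:99452771-99452913). Presence or absence of single regions was not tested, because an exact two-sided test of 2 libraries a genotype allows no p below 0.33.

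The calls behind these regions were mostly weak. At Foxo1 the KO peaks covered 433 and 250 bases at percentiles 16.9 and 4.2 of their lists. At Foxp1 they covered 127 and 122 bases at percentiles 52.1 and 27.0. The Foxn3 region nearer the start covered 195 and 131 bases at percentiles 33.2 and 28.4, and the other 221 and 400 bases at percentiles 11.0 and 3.9. Of the WT-only regions, that at Foxl2, a gene of ovarian granulosa cells, lay inside the gene 58 bp from its far end (chr9:98957856-98958068). It covered 117 and 189 bases in WT at percentiles 34.4 and 31.0. Since this was the only gene-end region of Foxl2, it was the 1 member whose gene end was called in both libraries of WT and in none of KO, a pattern seen in 0.315% of all genes, and 0 members had the reverse, seen in 0.297%. The WT-only region at Foxn3, chr12:99564660-99564814, lay 993 bp before its start with 142 and 112 covered bases at percentiles 12.1 and 13.8.

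Leaving out a library left 1 library to stand for its genotype, which changed these counts. Dropping WT replicate 1 gave 8 KO-only and 20 WT-only regions, and dropping WT replicate 2 gave 10 and 11. Dropping KO replicate 1 gave 19 and 6, and dropping KO replicate 2 gave 8 and 10.

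Per library, 152 and 160 forkhead regions were called in WT and 146 and 161 in KO. The means were 156 ± 5.66 and 153.5 ± 10.6 (SD, n = 2 libraries each), so the difference of -2.5 (KO minus WT) was smaller than the spread between replicates (two-sided exact permutation test, p = 1.0, where the smallest possible p is 0.33). Without WT replicate 1 the difference was -6.5, without WT replicate 2 it was 1.5, without KO replicate 1 it was 5.0, and without KO replicate 2 it was -10.0. Covered sequence was 69432 and 76580 bases in WT and 67280 and 77953 in KO (exact permutation test, p = 1.0, n = 2 each). The WT libraries called the gene ends of 24 and 26 forkhead genes and the KO libraries those of 23 and 22. These counts did not overlap, with a difference of -2.5, and the exact permutation p was 0.33, the smallest this design can give. The genes behind it were Foxf1, not called at its end in KO replicate 2, Foxd1, not called in KO replicate 1, Foxd4, called in WT replicate 2 and KO replicate 1, Foxe1, called in WT replicate 2, and Foxl2. Over all protein-coding genes the WT libraries called 12545 and 12719 and the KO libraries 12490 and 12667, which overlapped.

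Within single genes, the genotypes separated at few members. The number of regions was lower in both KO libraries at Foxj3, with 7 and 7 in WT and 6 and 6 in KO, and higher at 0 members (backgrounds of 4.66% and 3.03% of all genes). Covered bases were higher in both KO libraries at 3 members, Foxm1, Foxn1 and Foxo4 (7.89%, against 12.3% of all genes), and lower at 4, Foxa3, Foxc2, Foxe3 and Foxf1 (10.5%, against 13.3%). At Foxm1 the sums were 2716 and 2744 bases in WT and 2940 and 2894 in KO. At Foxf1 they were 720 and 572 bases for WT against 515 and 259 for KO.

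The covered length of shared regions was tested across the genome with limma, on log2 values centred on each library's median. Among 53062 regions called in all 4 libraries, 0 passed an adjusted p of 0.05 (0% of regions), and 3138 (5.91%) had an unadjusted p under 0.05. Of the 119 forkhead regions among them, 0 passed and 6 (5.04%) had an unadjusted p under 0.05. The forkhead differences had a median of 0.04 on the log2 scale (KO minus WT), against 0.01 over all shared regions. Of the forkhead differences 70 lay above and 49 below 0, and the split over all shared regions was not counted. Without WT replicate 1 the forkhead split was 64 and 61, and without WT replicate 2 it was 63 and 63. Without KO replicate 1 it was 66 and 61, and without KO replicate 2 it was 73 and 51.

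The 5 largest differences lay in Foxp1, Foxk1, Foxo1, Foxn3 and near Foxc2. The Foxp1 region chr6:98985341-98985941 covered 459 and 601 bases in WT and 169 and 171 in KO, a log2 difference of -1.61 ± 0.20 (SE, limma, adjusted p = 0.612). A region inside Foxk1, chr5:142412832-142413302, covered 417 and 359 bases in WT and 104 and 157 in KO (-1.59 ± 0.24, limma, adjusted p = 0.612). In both, the 2 WT libraries lay above the 2 KO libraries. In Foxo1 the region chr3:52328419-52329493 went the other way, with 343 and 477 bases in WT and 869 and 994 in KO (1.21 ± 0.21, limma, adjusted p = 0.612). The Foxn3 region chr12:99544919-99545551 covered 210 and 205 bases in WT and 633 and 320 in KO (1.13 ± 0.42, limma, adjusted p = 0.845). Near Foxc2, chr8:121113202-121113751 covered 416 and 550 bases in WT and 216 and 246 in KO (-1.04 ± 0.20, limma, adjusted p = 0.614). These 5 regions were picked as the largest of 119, which favours regions where the genotypes do not overlap. The share of all shared regions without overlap was not counted. None of the 5 differences passed the test.

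**Figure D5:**
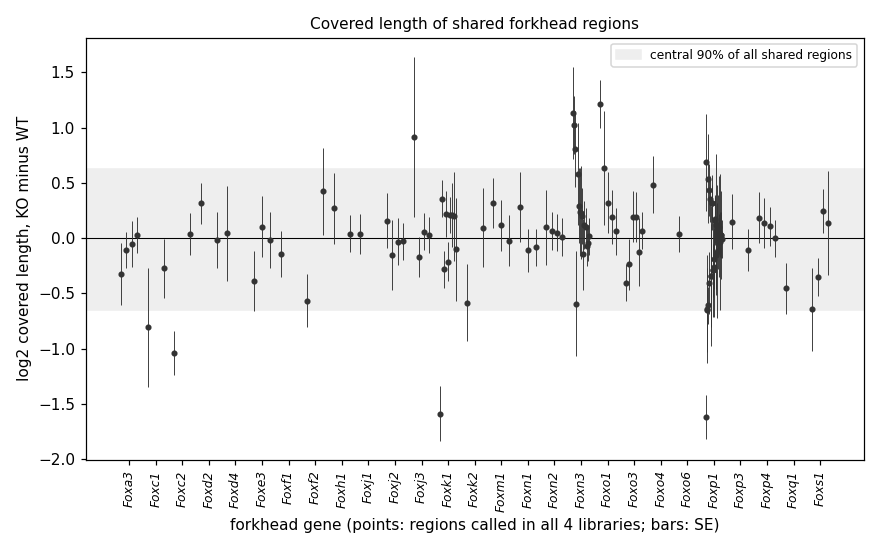
Difference in covered length between genotypes (vertical axis, log2, KO minus WT, bars show SE from limma) for the 119 forkhead regions called in all 4 libraries, by gene (horizontal axis), with a region shared by Foxd2 and Foxe3 drawn at both. The grey band holds the central 90% of all shared regions, from -0.65 to 0.63, and 12 points lie outside it, at Foxn3, Foxp1, Foxo1, Foxc1, Foxc2, Foxj3 and Foxk1.

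Most listed genes around the FoxO, FoxM1 and FoxK factors had called gene ends in both genotypes. Of 45 genes of the FoxO pathway, from the insulin receptor and AKT kinases to target genes, 38 (84.4%, against 54.7% of all genes) were called at an end in every library. The others were Cdkn1a, G6pc, Pck1, Pik3ip1, Sgk1, Usp7 and Ywhaz. G6pc and Pck1, gluconeogenic genes that FoxO1 drives in liver, had 1 region each, called in KO replicate 1 and in WT replicate 2 respectively, while Cdkn1a, Pik3ip1, Sgk1, Usp7 and Ywhaz each had regions in the wider window that all 4 libraries called. All 12 mitotic targets of FoxM1 on the list had a gene-end region in each library, as did 6 of 7 genes of the FoxK list that were found, Sin3a being the exception. The FoxK list holds Foxk1 and Foxk2 themselves.

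FoxO pathway genes had 2 KO-only regions and 6 WT-only regions among 296, beside 1.47% and 2.03% of all regions. The WT-only share is that of all regions. The KO-only regions lay at Insr, the insulin receptor gene, with 126 and 237 covered bases in KO, and Sesn1, a stress-induced FoxO target, with 182 and 628. Among the WT-only regions, the one at the insulin signalling gene Irs1 was the strongest, with 128 and 131 covered bases in WT, and its weaker peak stood at percentile 42.7. The FoxM1 and FoxK lists had 0 in either direction among 41 and 29 regions.

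Other families of developmental transcription factors were counted in the same way. Of 41 Sox, Pax and Tbx genes, 8 (19.5%) were called at an end in every library, and of 39 Hox genes 5 (12.8%) were, against 21 of 38 (55.3%) forkhead genes. A region called throughout, in the body or within 10 kb, was found at 26 Sox, Pax and Tbx genes (63.4%), 21 Hox genes (53.8%) and 27 forkhead genes (71.1%). These shares describe families taken by name and were not tested against each other. The Hox genes had 26 regions in all, 12 of them called throughout, so a single region was counted for more than 1 Hox gene. Among the regions of the Sox, Pax and Tbx genes 2 were KO-only and 4 WT-only of 135, and among those of the Hox genes 0 and 2 of 26, beside 4 and 2 of 202 at forkhead genes.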

How the data were processed

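ATAC-seq libraries of 2 WT and 2 Ezh2 KO macrophage samples were grouped by their titles. Reads were processed with fastp, Bowtie2 and MACS2 on mm10, per the submitters' processing notes, with versions not given in the sources used here. Every library has its own deposited set of broad peaks, not pooled, with the peak's fold (ratio to local background), a score derived from q, and −log10 p and −log10 q, all the authors' values. The sources used here do not say which peaks were filtered out or whether reads were shifted for the transposase. The lists give no counts or coverage.

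Peaks were merged at 1 bp overlap and placed with RefSeq GRCm38.p6, the assembly of mm10. Percentiles rank the fold within a list. Gene ends are annotated outer ends, so an inner promoter can be missed. The RefSeq promoter table held 23 of the members, matched by symbol. Covered length of regions called in all 4 libraries was fitted with limma 3.58.1 (R 4.3.3, Benjamini-Hochberg adjustment over all 53062). The fit was also run on simulated lengths that had the same spread in every region, unlike the data. That run therefore does not show what size of difference could be detected here. A replicate number was not taken to pair libraries, since the labels do not say so. Alternatives were other windows, overlaps and strengths, a replicate block and leaving out each library. Members and gene lists were chosen with earlier results of these data known. All members are named; values per library were given for the 10 strongest gene-end regions, genotype-only regions, separated counts and the 5 largest length differences. Sds3 was not matched by symbol. No genome sequence was used here.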

Additional observations from a re-analysis of the deposited data

How the results depend on the processing

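Genes called at an end throughout numbered 21 to 22 with each library left out and with ends of 0.5 or 2 kb, 15 when a call needed 50% of the region covered, and 19 and 11 with the weakest 25% and 50% of each list removed. Genes with a region called throughout ranged from 27 to 29 with a library left out, and numbered 24 at 50% coverage, 25 and 21 with the weakest 25% and 50% removed, 18 in gene bodies alone and 34 with a window of 50 kb. Regions called in all 4 libraries numbered 85 at 50% coverage, 88 and 51 with the weakest 25% and 50% removed, 85 in gene bodies alone, 223 with a window of 50 kb, and 124 to 127 with a library left out. When a call needed 50% of the region covered there were 8 KO-only and 6 WT-only regions, 7 and 4 with the weakest 25% removed, and 1 and 0 with the weakest 50% removed. A window of 50 kb gave 7 KO-only regions, and gene bodies alone gave 1 WT-only region. With a library left out they ranged from 8 to 19 and from 6 to 20. Fewer peaks, wider windows and fewer libraries change these counts by construction.

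The difference in region calls per library (KO minus WT) turned positive at 50% coverage (0.5) and with the weakest 50% removed (1.5), and ranged from -10.0 to 5.0 with a library left out (exact permutation p from 0.667 to 1.0). With a replicate block it stayed at -2.5 (exact paired p = 1.0).

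The limma fit of covered length called 0 forkhead regions with the replicate block, without scaling, with a trended variance, at 150 bp or more, and with each library left out, where 7 to 9 had an unadjusted p under 0.05 (5.65% to 7.14% of members, against 5.20% to 7.51% of all regions). The log2 covered-length differences between replicates 1 and 2 correlated at 0.01 between genotypes over the 53062 shared regions. This value misses shifts of a whole library and absent calls, so it cannot decide whether same-numbered libraries are paired. In both genotypes replicate 2 had more peaks. Regions called in the replicate 2 libraries alone numbered 2050 and in the replicate 1 libraries alone 959, beside 1867 WT-only and 1350 KO-only. Whether equal numbers mark a shared mouse or day is not given in the labels. Depth is unknown, which limits what an absent call can show.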
